A study of Drosophila melanogaster with 18 samples.

Results

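Peaks of N4-acetylcytidine (ac4C) that were called in control larvae of Drosophila melanogaster and again in both RNAi genotypes are described here. Members were selected on the listed presence and position of peaks. A control peak was taken as shared where, on the same chromosome and strand, it had a reciprocal overlap of at least 50% with a peak of the list labelled NAT10 and Xrp1 RNAi and with a peak of the list labelled NAT10 RNAi. This held for 12364 of 31666 control peaks (39.0%), among 93745 peaks in the 3 lists. Their partners were 12019 of 30887 peaks of the NAT10 and Xrp1 RNAi list (38.9%) and 12024 of 31192 peaks of the NAT10 RNAi list (38.5%). Because presence and position in the lists chose the members, their overlap and enrichment are given as descriptions, with no test.

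ac4C is a cytidine with an acetyl group on its base. It is made by NAT10, an acetyltransferase whose best known substrates are the RNA of the small ribosomal subunit and some transfer RNAs, and it has also been described on messenger RNA of human cells. In antibody capture followed by sequencing, fragments that carry the modified base are enriched over the input RNA, so a peak is a stretch of transcript with more captured than input reads. Xrp1, a bZIP transcription factor, is best known from fly cells that lack part of their ribosomal proteins.

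Whole 3rd-instar larvae were taken, with 40 larvae pooled per sample. Larvae with both constructs were Dats-GAL4 > UAS-NAT10-RNAi Xrp1-RNAi, those with 1 construct were Dats-GAL4 > UAS-NAT10-RNAi, and controls were Dats-GAL4/+. All 3 genotypes thus carried the driver, which per the labels is da-GAL4 with tub-GAL80ts and acts in the whole body once GAL80 is inactivated by warmth. Egg laying lasted 24 h at 18 °C, and first-instar larvae were then shifted to 30 °C. Larvae labelled NAT10 RNAi, which developed slowly, were harvested after 120 h and controls after 72 h, so harvest time goes with genotype in that comparison and they cannot be told apart. For larvae with both constructs the labels give no harvest time.

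Each genotype had 3 replicates with an input and an immunoprecipitated (IP) library each, 18 libraries in all. Input libraries held 15518179 to 24272099 reads in genes. Peak lists were deposited as 1 list per genotype, so enrichment has no replicate value. Nothing in the labels says that replicates came from separate crosses, so p-values measure the spread between these samples, which may be technical. In whole larvae, fewer cells of a type and less RNA per cell cannot be told apart.

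The targeted genes check the labels only in part. The NAT10 transcript, annotated as l(1)G0020 (FBgn0027330; minus strand of X:8716713-8720277 in BDGP6), held 1 control peak and no shared peak. Its level was 6.18, 6.04 and 6.02 FPKM (fragments scaled to gene length and library size) in input libraries labelled NAT10 and Xrp1 RNAi, 5.22, 5.93 and 5.76 in those labelled NAT10 RNAi, and 5.13, 4.97 and 5.46 in control. On this scale it was lower in neither RNAi genotype, so neither label was borne out. It was higher with both constructs than in control by 0.20 ± 0.06 on the log2 scale (SE; limma adjusted p = 0.025). Rescaling by the median ratio divides NAT10 RNAi libraries by 1.09 to 1.10 and control libraries by 0.942 to 0.960. The order of NAT10 RNAi and control may therefore turn with the scaling. In what follows, NAT10 RNAi and NAT10 and Xrp1 RNAi (or both constructs) stand for the libraries so labelled, and every direction drawn from them is a difference between labels. The gene shares 234 exon bases with CG1785 on the opposite strand.

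Xrp1 (FBgn0261113, 3R:18914968-18926849, plus strand) followed its label and also held shared peaks. It stood at 40.4, 40.9 and 43.9 FPKM in libraries labelled NAT10 and Xrp1 RNAi, at 385, 386 and 385 in those labelled NAT10 RNAi, and at 208, 211 and 214 in control. No 2 groups overlapped. The log2 difference on the FPKM + 1 scale was -2.31 ± 0.04 between both constructs and control (SE; limma, Benjamini-Hochberg adjusted p = 2.31e-11) and 0.87 ± 0.04 between NAT10 RNAi and control (limma adjusted p = 8.46e-09).

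Of 7 control peaks on Xrp1, 5 were shared. They lay in the 5′ UTR (3R:18919961-18920052 and 3R:18920351-18920652), in the coding sequence (3R:18925471-18925592 and 3R:18925771-18926120) and in the 3′ UTR (3R:18926508-18926899). The enrichment of the first was 1.43 in the NAT10 and Xrp1 RNAi list, 1.28 in the NAT10 RNAi list and 1.42 in the control list. The second had 1.84, 1.79 and 1.74 in the same order of lists, and the third 1.74, 1.77 and 1.46. The coding peak nearer the 3′ end had 2.38, 2.22 and 2.51, and the 3′ UTR peak 3.24, 2.86 and 2.21. A peak in each list is what the rule asks for, so only the sizes of these values are of note. The transcript differed between the RNAi genotypes by -3.18 ± 0.04 on the log2 scale (SE; limma adjusted p = 1.57e-12).

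Shared peaks were longer than other control peaks, and few had a weak call. Their median length was 241 bases, with quartiles of 181 and 359, against 181 bases for the 13452 control peaks with partial overlap and 121 bases for the 5850 that touched no peak of an RNAi list. A longer peak can meet the overlap rule more easily, so length is not independent of the choice. Only 1.08% of shared peaks had an FDR of 0.05 or more in the control list, against 8.88% of peaks with partial overlap and 27.8% of peaks without a counterpart. Median control enrichment was 2.25, against 2.1 and 2.53 for these groups. The 12364 members formed 11916 separate regions, since 853 overlapped another member on their strand. The start and end were identical in all 3 lists for 799 members (6.46%).

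Enrichment was modest and similar in the 3 lists. Its median over members was 2.25 in the NAT10 and Xrp1 RNAi list, 2.17 in the NAT10 RNAi list and 2.25 in the control list, against 2.18, 2.07 and 2.22 over every peak of those lists. The quartiles of members were 1.78 and 3.07 with both constructs, 1.72 and 2.89 with NAT10 RNAi, and 1.77 and 3.08 in control. A fold of at least 2 in all lists was reached by 5512 members (44.6%), a fold of at least 4 by 536 (4.34%) and a fold of at least 8 by 47. The highest value of a member exceeded its lowest by a median factor of 1.34. That factor was at least 2 for 1703 members (13.8%) and at least 4 for 367. Over the 12364 members, the Spearman rho of enrichment was 0.71 between the NAT10 and Xrp1 RNAi list and control, 0.73 between NAT10 RNAi and control and 0.72 between the RNAi lists. The rule kept peaks present in every list and the values share each transcript's base composition and level, so these correlations describe the members and carry no p.

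**Figure D1:**
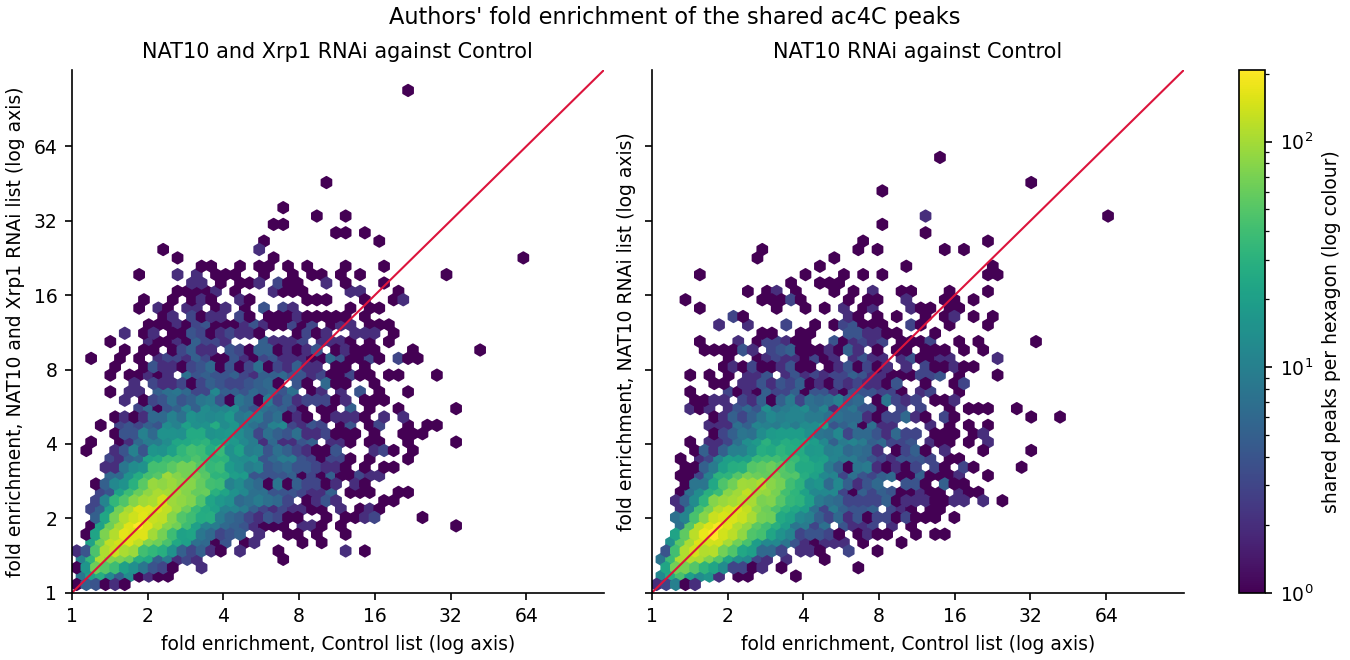
The authors' fold enrichment of the 12364 shared peaks on log axes, in the NAT10 and Xrp1 RNAi list (left) and the NAT10 RNAi list (right) on the vertical axis, against the control list on the horizontal axis. The red line marks equal values, and colour gives the number of peaks per hexagon on a log scale; most peaks lie close to the line between 1.5 and 4, with scattered peaks far to both sides.

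Just inside the threshold of 50% were peaks of CG7251 (2L:5588058-5588237), CG5056 (2L:10367318-10367797) and the noncoding gene CR44224 (2L:10506479-10506598). Their enrichment was 1.5, 2.93 and 1.64 in the NAT10 and Xrp1 RNAi list, 1.91, 15.7 and 1.93 in the NAT10 RNAi list, and 2.40, 7.59 and 1.59 in control. Just outside it, with overlaps of 49.9%, were peaks of Med, CIA30 and usp, which encodes the partner of the ecdysone receptor. Their enrichment was 2.40, 2.16 and 2.78 with both constructs, 2.36, 2.29 and 2.06 with NAT10 RNAi, and 3.14, 2.25 and 11.4 in control.

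The 10 members with the highest lowest enrichment had at least 12.1-fold in every list. The first was a peak of 150 bases in the coding sequence of brn, which encodes a glycosyltransferase of glycolipid synthesis (X:4105169-4105318, plus strand). Its enrichment was 22.8 in the NAT10 and Xrp1 RNAi list, 32.6 in the NAT10 RNAi list and 62.5 in control. A coding peak of CG10064 (3L:6966365-6966676, minus strand) had 110, 20.0 and 21.8 in the same order. A peak of 271 bases with the same edges in all lists (X:16522966-16523236, minus strand) had 27.1, 23.5 and 17.3. By gene span it fell to para, the voltage-gated sodium channel gene, where it was intronic, and its bases lay in exons of Cnx14D, a calnexin gene.

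Further members of this group lay in several kinds of gene. CG2121 (2R:8397262-8398084) had 16.1 with both constructs, 15.3 with NAT10 RNAi and 19.3 in control. The 3′ UTR of caup, which encodes an Iroquois homeodomain factor (3L:12621677-12621798), had 15.1, 16.9 and 21.0. Hsp60B, a member of the mitochondrial chaperonin family (2L:729670-730534), had 16.1, 55.7 and 13.6. Hip14, a palmitoyltransferase gene (3L:15989745-15990554), had 29.1, 33.0 and 12.4, and Rab3-GEF, an exchange factor gene for the synaptic GTPase Rab3 (X:15093616-15094138), had 12.1, 33.4 and 12.8. Neither of the 2 remaining peaks overlapped a gene span of the table, and by annotated exons they lay in the cytochrome P450 gene Cyp318a1 (15.4, 12.8 and 14.5) and in CG16815 (12.6, 14.9 and 15.2). The mean control level of the 8 assigned genes ran from 1.24 FPKM for CG2121 to 10.3 for Hsp60B. One of the 8 is para, whose level is not that of Cnx14D, the gene with exons under the peak. The peak lists give no input counts for single peaks.

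Shared peaks were spread over many genes. Of the members, 12018 overlapped a gene span of the authors' table and fell to 6183 of 12301 genes (50.3%). Of these genes 3280 held 1 shared peak, 1548 held 2, 662 held 3 and 693 held at least 4. The gene with the most was Msp300, which encodes a giant nuclear envelope protein of muscle, with 33 shared peaks among 67 control peaks. Svil, the supervillin gene, held 17, and br, which encodes the Broad zinc-finger factors of the ecdysone response, held 16. CR43334, the noncoding host transcript of the bantam microRNA, held 22 that formed only 10 regions, and mod(mdg4), a chromatin gene with many alternative 3′ ends, held 19 in 3 regions, so both counts rest on overlapping entries.

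The peaks of br showed how members vary within a transcript. Of its 16 shared peaks 12 lay in 3′ UTR, 2 in coding sequence and 2 in 5′ UTR. The highest was the coding peak at X:1648247-1648937, with 3.54 in the NAT10 and Xrp1 RNAi list, 5.33 in the NAT10 RNAi list and 5.71 in control. A 3′ UTR peak at X:1661962-1662382 had 2.63, 2.74 and 2.69, and one at X:1661422-1661633 had 1.5, 1.71 and 1.43. The gene itself stood at 154 ± 2.88 FPKM with both constructs, 72.1 ± 0.455 with NAT10 RNAi and 187 ± 5.97 in control (SD, n = 3 each). It shares 189 exon bases with Mur2B on the opposite strand. The 33 peaks of Msp300 were flatter: their lowest enrichment over the lists ran between 1.16 and 2.23, with 31 in coding sequence and 2 in 5′ UTR.

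Place in the gene is a feature that the rule did not use. In protein-coding genes 67.6% of 11604 shared peaks lay mostly in coding sequence, 20.1% in 3′ UTR, 8.32% in 5′ UTR and 4.02% in intron. The share in 3′ UTR was 13.5% for control peaks with partial overlap and 10.6% for those with no counterpart. Coding sequence held 74.9% and 74.3% of the peaks in these groups. Among exon bases, coding sequence made up 73.1% in shared peaks, against 64.6% over all exon bases of the genes that hold them. The values for 3′ UTR were 18.6% and 22.4%, and those for 5′ UTR 8.31% and 13.1%. Shared peaks were thus richer in coding bases than their own genes, and richer in 3′ UTR than the control peaks that were not shared. Along the spliced transcript the median centre was 54.0% of the way from the 5′ end, against 51.6% for partial overlap and 46.9% for no counterpart. These shares rest on 1 list per genotype and have no replicate spread.

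**Figure D2:**
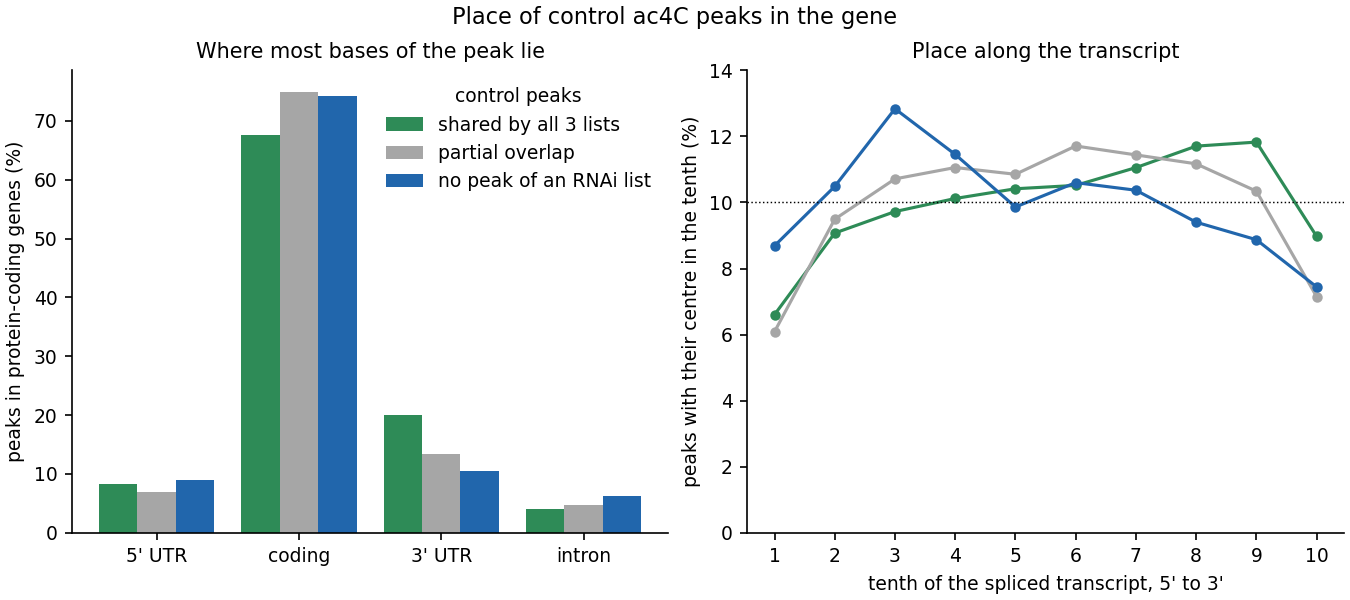
Left, the percentage of control peaks in protein-coding genes by where most of their bases lie, for peaks shared by all 3 lists (green), with partial overlap (grey) and with no counterpart (blue). Right, the percentage of peaks whose centre lies in each of 10 equal bins along the spliced transcript, with the dotted line at 10%; the green line is above the blue line in bins 7 to 10 and below it in bins 1 to 4.

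Genes with a shared peak were more abundant and longer. Their median level was 10.8 FPKM in the NAT10 and Xrp1 RNAi input, 12.2 in the NAT10 RNAi input and 10.5 in control, against 3.36, 4.00 and 3.25 for the other genes of the table. With genes cut by control level into 4 groups of equal size, 20.6% of the lowest group held a shared peak, then 47.7%, 63.0% and 69.7% in the highest. Cut by length in the same way, 31.8% of the shortest group held one, then 42.1%, 54.3% and 72.9% of the longest. Per kilobase of gene the count ran the other way, at 0.482, 0.390, 0.371 and 0.340 shared peaks. Strong peaks were more frequent on rare transcripts: at least 4-fold in all lists was reached by 12.0% of members in the lowest level group, against 2.96% to 4.63% in the other groups. Depth at a site moves with level, and its part in these shares was not tested.

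**Figure D3:**
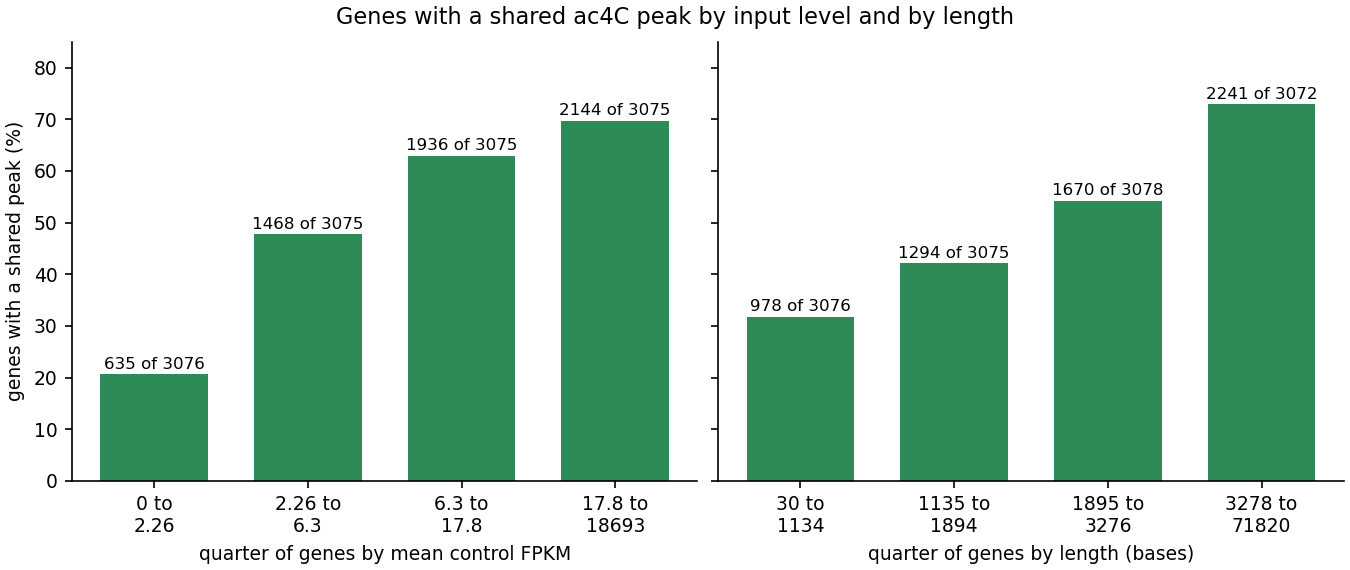
The percentage of genes in the authors' table that hold a shared peak, in 4 equal groups of mean control input level in FPKM (left) and of gene length in bases (right), with the number of genes above each bar. The bars run between 20.6% and 69.7% by level and between 31.8% and 72.9% by length.

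More members lay on the plus strand than on the minus strand. The counts were 7733 and 4631 peaks, or 62.5% on the plus strand, against 47.6% for control peaks with no counterpart. Of genes on the plus strand 58.1% held a shared peak (3547 of 6108), and of genes on the minus strand 42.6% (2636 of 6193). Each of the complete lists leaned the same way, with 57.2% on the plus strand with both constructs, 59.1% with NAT10 RNAi and 57.6% in control. Of the 346 members assigned to no gene, 321 were on the plus strand. All 346 touched an annotated exon on their strand. For 277 the annotated gene is in the authors' table, but no gene span listed there overlapped the peak on its strand. On chromosomes X, 2, 3 and 4 the shared fraction of control peaks ran from 37.7% on 3R to 42.6% on chromosome 4. The Y chromosome held 1 member and the mitochondrial genome 7 (58.3% of its control peaks).

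A share of the members lay outside protein-coding genes. There were 336 shared peaks on 233 noncoding genes. Bantam, which lies in the CR43334 transcript, promotes growth and blocks apoptosis. In the authors' deposited table for NAT10 RNAi, 2 overlapping CR43334 members are entered as higher (3L:641164-641345 and 3L:641142-641352), with log2 changes of 1.43 and 1.39 and FDR values of 0.0287 and 0.0332. For the first, IP counts were 90, 84 and 91 in NAT10 RNAi libraries and 131, 115 and 130 in control, and input counts were 10, 2 and 7 against 28, 27 and 14. The transcript shares 994 exon bases with a noncoding gene on the opposite strand.

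The next question was how the transcripts that hold shared peaks differ in level between genotypes. Input libraries were compared in 1 limma fit over 11557 genes, and 6106 of the 6183 genes with a shared peak passed its filter on low values. A gene's level goes with membership, as given above, so the counts below are to be read against the share called over all genes. Between both constructs and control 2733 members were called (44.8%, limma adjusted p under 0.05), against 40.8% of all genes tested. Of these 1405 were higher and 1328 lower, against 21.5% and 19.2% of all genes. A change of at least 2-fold was called for 76, or 1.24%, against 1.7% of all genes. Between NAT10 RNAi and control 4235 were called (69.4%), against 66.2% of all genes. Of the members tested 2908 were higher (47.6%) and 1327 lower (21.7%), against 47.3% and 18.9%. After libraries were rescaled by their median ratio, 1879 were higher and 2239 lower. At least 2-fold was called for 388 (6.35%), against 7.16%. Between both constructs and NAT10 RNAi 3907 were called, against 61.4% of all genes, with 1046 higher and 2861 lower, against 15.2% and 46.1%. Rescaled, these were 2006 and 1612. At least 2-fold was called for 203 (3.32%), against 4.43%. The direction of most calls with NAT10 RNAi therefore turned with the scaling: the median over all genes was 0.17 on the log2 scale for NAT10 RNAi against control and -0.16 for both constructs against NAT10 RNAi.

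Enrichment was then set beside these changes in level. In the 276 member genes that were at least 2-fold higher with NAT10 RNAi, 497 shared peaks had a median enrichment of 2.15 in the NAT10 RNAi list and 2.38 in control. In the 112 that were at least 2-fold lower, 191 peaks had 2.3 and 2.49. The median log2 ratio of enrichment per peak was -0.16 for the first set and 0.01 for the second, against -0.05 over the 11929 peaks of all tested member genes. With both constructs against NAT10 RNAi, 220 peaks of the 129 lower genes had medians of 2.43 and 2.19 and a median log2 ratio of 0.14. The 142 peaks of the 74 higher genes had 2.54 and 2.265 and a median log2 ratio of 0.04, against 0.07 overall. These ratios compare single lists. Enrichment is taken over input, and the gene sets were chosen by their change in input. A higher input by itself lowers the ratio, so these directions are not independent of the choice and nothing about ac4C is read from them.

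The salivary glue genes Sgs8, Sgs7 and Sgs5, whose products fix the pupa to its substrate, were far lower in both RNAi genotypes than in control. Sgs8 stood at 5.56, 6.75 and 7.13 FPKM with both constructs, at 6.68, 6.31 and 5.71 with NAT10 RNAi, and at 197, 194 and 198 in control. Sgs7 stood at 100.3, 143 and 134 with both constructs, at 113, 108 and 113 with NAT10 RNAi, and at 2894, 2599 and 2599 in control. In both genes the RNAi groups overlapped each other and lay far below control. Against control, Sgs7 was lower by -4.43 ± 0.11 with both constructs and by -4.59 ± 0.11 with NAT10 RNAi on the log2 scale (SE; limma adjusted p = 8.23e-10 and 1.51e-10). Sgs5 held 575, 455 and 401 FPKM with both constructs, 199, 204.5 and 206 with NAT10 RNAi and 2649.5, 2692 and 2661 in control, with all groups apart. The summed level of 4 salivary gland markers was 482 to 536 FPKM with both constructs, 398 to 413 with NAT10 RNAi and 9309 to 10480 in control, with none of the 4 at 0; 2 of them are Sgs7 and Sgs8 themselves. The part of gland size or stage in these levels was not tested.

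The Sgs8 peak (3L:11508966-11509394) covered the whole gene span, with enrichments of 2.53 in the NAT10 and Xrp1 RNAi list, 4.19 in the NAT10 RNAi list and 4.49 in control. The Sgs7 peak (3L:11509860-11510247) had 2.23, 2.09 and 2.04, and the Sgs5 peak (3R:17595563-17595793) 3.16, 1.88 and 1.88. Sgs5 had 2 further control peaks that were not shared.

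ple and Pu were low with NAT10 RNAi and near control with both constructs. ple, which encodes tyrosine hydroxylase of dopamine synthesis, stood at 144, 139 and 137 FPKM with both constructs, at 10.4, 9.88 and 10.0 with NAT10 RNAi, and at 131, 131 and 131 in control. It was lower by -3.57 ± 0.03 with NAT10 RNAi against control and higher by 3.67 ± 0.03 with both constructs against NAT10 RNAi (log2, SE; limma adjusted p = 1.77e-13 and 4.07e-13). Against control, both constructs gave 0.09 ± 0.03 (limma adjusted p = 0.0405), a call that was lost under 13 of the alternatives, among them without each control replicate. Pu, which encodes GTP cyclohydrolase for the cofactor of that enzyme, stood at 218, 195 and 174 FPKM with both constructs, at 27.3, 28.1 and 29.3 with NAT10 RNAi, and at 203, 186 and 184 in control. In Pu the groups with both constructs and control overlapped (0.03 ± 0.07; limma adjusted p = 0.785), and NAT10 RNAi lay below both. The 4 epidermis markers, larval cuticle genes of which none was at 0, summed to 7837 to 9948 FPKM with both constructs, 3534 to 3567 with NAT10 RNAi and 8147 to 8391 in control. Against control all 4 were lower with NAT10 RNAi and 1 with both constructs, and their part in the levels of ple and Pu was not tested.

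The same genes held strong shared peaks. A 3′ UTR peak of ple (3L:6714104-6714375) had enrichments of 12.0 in the NAT10 and Xrp1 RNAi list, 8.6 in the NAT10 RNAi list and 11 in control, and its neighbour (3L:6714823-6715064) had 2.28, 2.67 and 2.25. The 3′ UTR peak of Pu (2R:21182487-21182608) had 3.74, 11.6 and 9.14, and its coding peak (2R:21175374-21175584) 1.89, 4.13 and 2.15.

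CG13606 and CG5171 followed the pattern of ple in level. CG13606 stood at 107, 96.3 and 101 FPKM with both constructs, at 3.82, 3.17 and 3.96 with NAT10 RNAi and at 129.6, 130.2 and 132 in control. Its 3′ UTR peak (3R:24180850-24181233) had enrichments of 3.56, 3.22 and 3.57 in the same order of lists. CG5171 stood at 77.6, 80.9 and 89.3 FPKM with both constructs, at 10.3, 9.49 and 11.04 with NAT10 RNAi and at 101, 106 and 99.8 in control. Its coding peak (2L:7403825-7404399) had 3.39, 6.28 and 3.26, highest in the NAT10 RNAi list. Both genes were slightly lower with both constructs than in control, by -0.36 ± 0.06 and -0.31 ± 0.06 (log2, SE; limma adjusted p = 0.00109 and 0.00288). CG42500 went past its control level: it had 268, 355 and 358 FPKM with both constructs, 19.8, 22.4 and 18.5 with NAT10 RNAi and 141, 137 and 134 in control, and its 2 shared peaks overlap each other.

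The member genes highest above control in NAT10 RNAi libraries were intermediate with both constructs. Nplp2, a neuropeptide-like precursor gene, stood at 6.54, 7.85 and 8.02 FPKM with both constructs, at 80.5, 87.0 and 77.1 with NAT10 RNAi, and at 2.34, 2.39 and 2.37 in control. The log2 difference of NAT10 RNAi from control was 4.62 ± 0.07 (SE; limma adjusted p = 1.01e-11). CG9757 stood at 29.7, 36.6 and 30.5 with both constructs, at 127, 148 and 136 with NAT10 RNAi and at 5.09, 4.52 and 5.50 in control. CG14419, at 36.2, 36.6 and 42.0, then 142, 139 and 141, then 6.24, 6.63 and 6.90 in the same order, and Cpr49Af, a cuticle protein gene, at 12.6, 14.8 and 15.2, then 53.3, 54.1 and 51.8, then 3.43, 4.33 and 3.56, had the same order without overlap. CG15597 was at 4.17, 4.27 and 5.79 with both constructs, at 17.0, 13.9 and 14.4 with NAT10 RNAi and at 0.727, 0.383 and 0.255 in control, so its control enrichment of 15.0 rests on a rare transcript. All 5 genes were higher with both constructs than in control and lower than with NAT10 RNAi (limma adjusted p between 6.12e-10 and 6.53e-06).

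Enrichment on these transcripts was lower in the NAT10 RNAi list than in control. The genes were chosen for higher input with NAT10 RNAi, and enrichment is taken over input. The choice therefore favours this order, and the values are descriptions only. The Nplp2 peak (3L:13356491-13357194) had 5.26 with both constructs, 3.21 with NAT10 RNAi and 4.49 in control. For CG9757 (3R:13611904-13612345) the values were 6.75, 6.01 and 11.4, for CG14419 (X:2885476-2885885) 4.39, 3.84 and 4.93, and for CG15597 (3R:6284579-6285081) 11.6, 3.78 and 15.0. The coding peak of Cpr49Af (2R:12405931-12406312) had 3.13, 2.36 and 2.79.

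A further set was high with NAT10 RNAi and near or below control with both constructs. CG15784 stood at 36.9, 36.8 and 39.6 FPKM with both constructs, at 412, 430.3 and 412 with NAT10 RNAi and at 89.1, 82.7 and 85.4 in control. It differed from control by -1.16 ± 0.04 with both constructs and by 2.27 ± 0.04 with NAT10 RNAi (log2, SE; limma adjusted p = 1.53e-08 and 3.16e-11). Its 3 shared peaks, all coding, had between 1.80 and 2.74 with both constructs, 1.51 and 2.83 with NAT10 RNAi and 1.91 and 3.29 in control. CG32198 stood at 15.6, 17.2 and 17.8 FPKM, then 153, 156 and 159, then 13.2, 15.3 and 13.2 in that order of groups. CG13461 stood at 45.5, 39.9 and 35.8, then 374, 377 and 381, then 50.3, 49.0 and 41.9, so only the NAT10 RNAi libraries stood apart. Its difference between both constructs and control missed the threshold (-0.22 ± 0.08; limma adjusted p = 0.0629) and passed it under 5 of the alternatives. The CG13461 peak touches 2 genes.

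Further named members stood away from control in both RNAi genotypes. CG9297 stood at 330.5, 319.8 and 332 FPKM with both constructs, at 246, 245 and 242 with NAT10 RNAi and at 83.4, 84.2 and 82.2 in control, 1.96 ± 0.03 above control on the log2 scale with both constructs (SE; limma adjusted p = 2.31e-11). Its 3′ UTR peak (3R:13778686-13779017) had 2.7, 2.48 and 2.16. Amy-d, an amylase gene whose reads are uncertain because Amy-p is a near-identical copy, stood at 16.9, 21.0 and 22.9, then 26.99, 26.3 and 26.3, then 2.42, 3.07 and 2.99. CG7296 stood at 8.26, 12.2 and 11.5, then 8.06, 9.99 and 8.75, then 1.51, 1.98 and 2.39, with both RNAi groups overlapping, and its 2 shared peaks are overlapping entries. CG43117 was lower in both genotypes, at 125.1, 140.3 and 130.3, then 242, 231 and 235, then 520.4, 529 and 575.

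**Figure D4:**
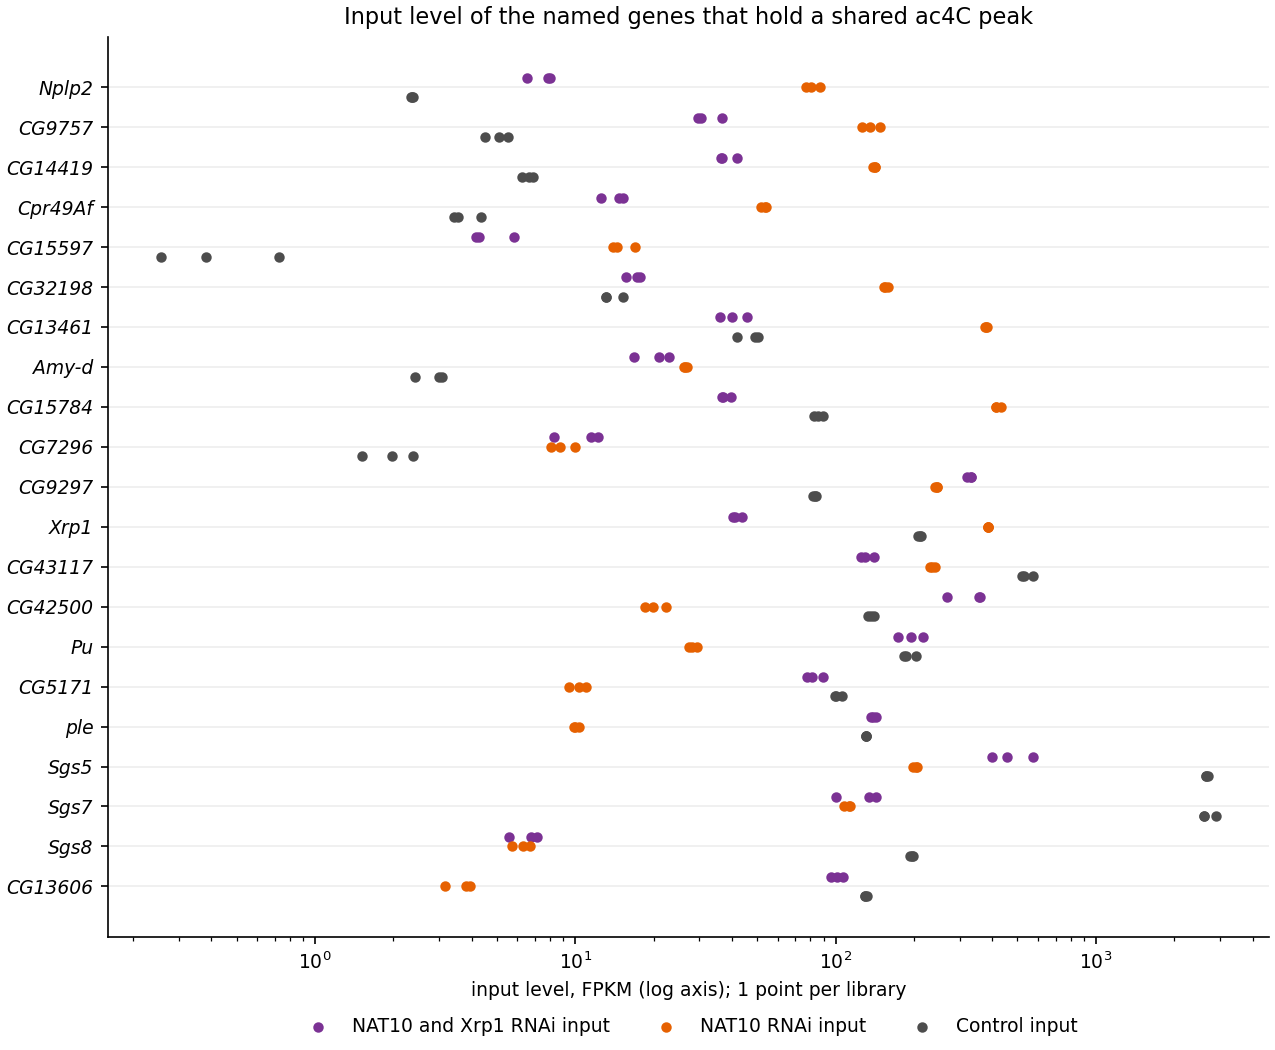
Input level in FPKM on a log axis for the 21 named genes with a shared peak, with 1 point per library: NAT10 and Xrp1 RNAi (purple), NAT10 RNAi (orange) and control (grey), from the highest to the lowest difference between NAT10 RNAi and control. The genes at the top have orange points to the right of the others; in ple, Pu, CG5171 and CG13606 the orange points stand far to the left, and in Sgs7 and Sgs8 both RNAi groups do.

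Gene groups were then read from 15 lists, counting the members with a shared peak. Each count is to be read beside the share over all genes tested. With both constructs against control 21.5% of all genes rose and 19.2% fell. With NAT10 RNAi against control these shares were 47.3% and 18.9%, and between both constructs and NAT10 RNAi 15.2% and 46.1%. Proteasome subunits, which degrade tagged proteins, had a shared peak in 27 of 47 genes. With NAT10 RNAi against control 24 of the 27 fell and 2 rose (limma adjusted p under 0.05), with a median log2 difference of -0.72 against 0.17 over all genes tested. Both constructs against control gave 16 lower and 2 higher, with a median of -0.21. Against NAT10 RNAi, 24 rose and 2 fell with both constructs, with a median of 0.57. Rpn2, a scaffold of the regulatory particle, stood at 474, 429 and 462 FPKM with both constructs, at 294, 293 and 291 with NAT10 RNAi, and at 544, 524 and 538 in control. Its coding peak (3R:29155350-29155591) had enrichments of 3.72, 4.77 and 4.00 in that order of lists. Rpn3 had the strongest shared peak of the list, at 9.74, 5.26 and 5.90, and averaged 95.6 ± 5.78, 64.1 ± 1.16 and 112 ± 1.07 FPKM (SD, n = 3 each).

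Genes of the ecdysone response, which drives moulting and metamorphosis, came next. Of 13 with a shared peak 11 fell and 1 rose with NAT10 RNAi against control, with a median of -0.77. Larvae with both constructs had 7 lower and 1 higher than control, with a median of -0.19, and against NAT10 RNAi 10 rose and 1 fell, with a median of 0.59. Hr4, a nuclear receptor gene, stood at 18.7, 16.1 and 16.2 FPKM with both constructs, at 1.68, 1.82 and 1.79 with NAT10 RNAi, and at 16.3, 16.6 and 15.8 in control. Its 3′ UTR peak (X:2005319-2005620) had 12.2, 5.63 and 3.87, and the gene shares 46 exon bases with PIG-K. ImpE1 averaged 44.6 ± 3.02, 12.7 ± 0.284 and 48.4 ± 0.823 FPKM in that order of groups, and Eip74EF, an early ETS-domain factor gene, 29.2 ± 0.624, 18.4 ± 0.211 and 29.8 ± 0.375. This list marks developmental stage. Between NAT10 RNAi and control the harvest at 120 h and 72 h goes with genotype, and its part was not tested.

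Muscle and matrix genes were higher in both RNAi genotypes. Of 19 sarcomere genes with a shared peak, among 21 listed, 17 rose and none fell with both constructs against control, and 18 rose and 1 fell with NAT10 RNAi, with medians of 0.64 and 1.04. Between both constructs and NAT10 RNAi 2 rose and 15 fell. Act57B, a muscle actin gene, stood at 638, 762 and 757 FPKM with both constructs, at 1063, 1083 and 1049 with NAT10 RNAi and at 381, 363 and 368 in control. Its 3′ UTR peak (2R:20945806-20946075) had 3.57, 3.16 and 3.19. TpnC73F, a troponin C gene, was the member that fell with NAT10 RNAi, with a log2 difference of -0.25 ± 0.05 (SE; limma adjusted p = 0.00146). The summed level of 4 muscle markers, which are members of this list with shared peaks and none at 0, was 3535 to 3740 FPKM with both constructs, 4975 to 5070 with NAT10 RNAi and 1671 to 1732 in control. Of 11 tested matrix genes 8 rose and none fell with both constructs, and 9 rose and 1 fell with NAT10 RNAi against control. Col4a1, a basement membrane collagen gene that hemocytes and fat body express, averaged 93.8 ± 5.48, 213 ± 3.04 and 61.0 ± 2.11 FPKM, and 4 hemocyte markers summed to 29.8 to 33.8, 65.3 to 66.2 and 20.5 to 20.9. The 4 fat body markers summed to 8836 to 9894 FPKM with both constructs, 6731 to 6941 with NAT10 RNAi and 8638 to 8806 in control. With NAT10 RNAi against control 3 of these were lower and 1 higher. The part of tissue amounts in the muscle and matrix genes was not tested. wb, a laminin gene with a shared peak, did not pass the filter.

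Glycolysis genes had a shared peak in 11 of 12 cases. Against control, 10 of the 11 rose and none fell with both constructs, and all 11 rose with NAT10 RNAi, with medians of 0.57 and 0.78. Between both constructs and NAT10 RNAi none rose and 10 fell, which became 1 and 5 after rescaling. Ald1, the aldolase gene, averaged 53.4 ± 2.95 FPKM with both constructs, 61.1 ± 0.762 with NAT10 RNAi and 35.5 ± 1.46 in control, and shares 338 exon bases with an antisense gene. Its 5′ UTR peak (3R:26261290-26261531) had 8.77, 2.80 and 2.78. Gapdh2 held the strongest shared peak of the list, in its 3′ UTR (X:15869307-15869632), at 12.5, 14 and 7.52.

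Genes of the translation machinery depended on the scaling. Over all genes tested, 21.5% rose and 19.2% fell with both constructs against control, and 47.3% and 18.9% with NAT10 RNAi. Cytosolic ribosomal protein genes had a shared peak in 46 of 91 cases at a median control level of 217 FPKM. Of the 46, 7 rose and 10 fell with both constructs against control. With NAT10 RNAi against control 38 rose and 1 fell, or 22 and 4 after rescaling, and between both constructs and NAT10 RNAi none rose and 40 fell, or 3 and 23 after rescaling. The symbol match also took in RpL7-like, RpL24-like and RpLP0-like, and without them 45 of 88 had a shared peak, of which 37 rose and 1 fell with NAT10 RNAi. RpL15 stood at 604, 715 and 698 FPKM with both constructs, at 918, 926 and 908 with NAT10 RNAi and at 728, 748 and 721 in control, with a coding peak (3L:27268175-27268445) of 5.74, 4.82 and 6.28. The peak assigned by span to RpS27A (2L:10409346-10409610) lay in an intron there and in exons of Ip259. Of 39 translation factor genes, among 50, 6 rose and 8 fell with both constructs and 25 rose and 4 fell with NAT10 RNAi against control, which became 14 and 13 after rescaling. Mitochondrial ribosomal protein genes held a shared peak in 27 of 70 cases, at a median control level of 5.04 FPKM. Of these, 9 rose and 2 fell with both constructs against control, and with NAT10 RNAi 16 rose and 1 fell, or 9 and 3 after rescaling.

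Chromatin regulators were the list with the largest share of genes with a shared peak, at 28 of 30. They are long genes, with a median of 6293 bases, and held 104 shared peaks. Only 1 rose and 15 fell with both constructs against control, with a median of -0.11. With NAT10 RNAi against control 5 rose and 7 fell, or 2 and 21 after rescaling, and between both constructs and NAT10 RNAi 4 rose and 13 fell, which turned to 15 and 1 after rescaling. kis, a chromatin remodeller gene with 8 shared peaks, averaged 41.6 ± 1.17, 39.1 ± 0.296 and 47.9 ± 0.236 FPKM, and its peak at 2L:214574-214875 had enrichments of 8.77, 12.4 and 7.42. dom, an ATPase gene of a histone exchange complex, held 11 shared peaks.

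The remaining lists were more divided, and their counts are to be read beside the shares over all genes given above. The list of cytochrome P450 genes, of drug and hormone metabolism, was matched by symbol and with that took in Cyp1, a cyclophilin gene. It had a shared peak in 27 of 71 cases at a median control level of 2.18 FPKM, or in 26 of 70 without Cyp1. Of the 26, 12 rose and 2 fell with both constructs against control, and with NAT10 RNAi 22 rose and 2 fell, or 18 and 3 after rescaling. Cyp9c1 averaged 33.9 ± 2.82, 87.3 ± 0.780 and 23.2 ± 1.33 FPKM, and an antisense gene overlaps 1711 of its exon bases. The cuticle protein list, also matched by symbol, took in Cpr, the gene of P450 reductase. Of its 24 genes with a shared peak 11 rose and 4 fell with both constructs, and 9 rose and 11 fell with NAT10 RNAi against control. Without Cpr 10 rose and 4 fell, and 8 rose and 11 fell, among 23. The epidermis markers Lcp1, Lcp2, Lcp3 and Lcp4 belong to this list. Cpr49Ac stood at 2157, 2178 and 2258 FPKM with both constructs, at 553, 556 and 551 with NAT10 RNAi and at 2754, 2813 and 3006 in control. Of 12 heat shock and chaperone genes 3 rose and 5 fell with both constructs, and 6 rose and 6 fell with NAT10 RNAi against control. Hsp60C averaged 42.0 ± 2.11, 75.8 ± 2.7 and 34.5 ± 0.700 FPKM.

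Among signalling and stress lists, 11 Notch pathway genes with a shared peak had none higher and 6 lower with both constructs, and none higher and 7 lower with NAT10 RNAi against control. Between both constructs and NAT10 RNAi 1 rose and none fell, or 7 and none after rescaling. mam, a nuclear co-activator gene of Notch, averaged 24.9 ± 0.872, 22.6 ± 0.202 and 29.8 ± 0.590 FPKM, with a 3′ UTR peak (2R:14057838-14058109) of 6.84, 5.06 and 6.79. Of 11 insulin and TOR pathway genes 2 rose and 2 fell with both constructs, and 7 rose and none fell with NAT10 RNAi against control, or 2 and 1 after rescaling. Over all genes tested, 21.5% rose and 19.2% fell with both constructs, and 47.3% and 18.9% with NAT10 RNAi. The list of Xrp1, p53 and cell stress genes had 8 members with a shared peak, Xrp1 among them. Both constructs against control gave 1 higher and 7 lower, with a median of -0.40, and with NAT10 RNAi 5 rose and 2 fell, or 3 and 2 after rescaling. crc, the fly ATF4 gene, stood at 118, 121 and 122 FPKM with both constructs, at 169.9, 169 and 166 with NAT10 RNAi and at 137, 144 and 145 in control. Its reads are uncertain, since CG46314 shares 2515 of its exon bases.

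**Figure D5:**
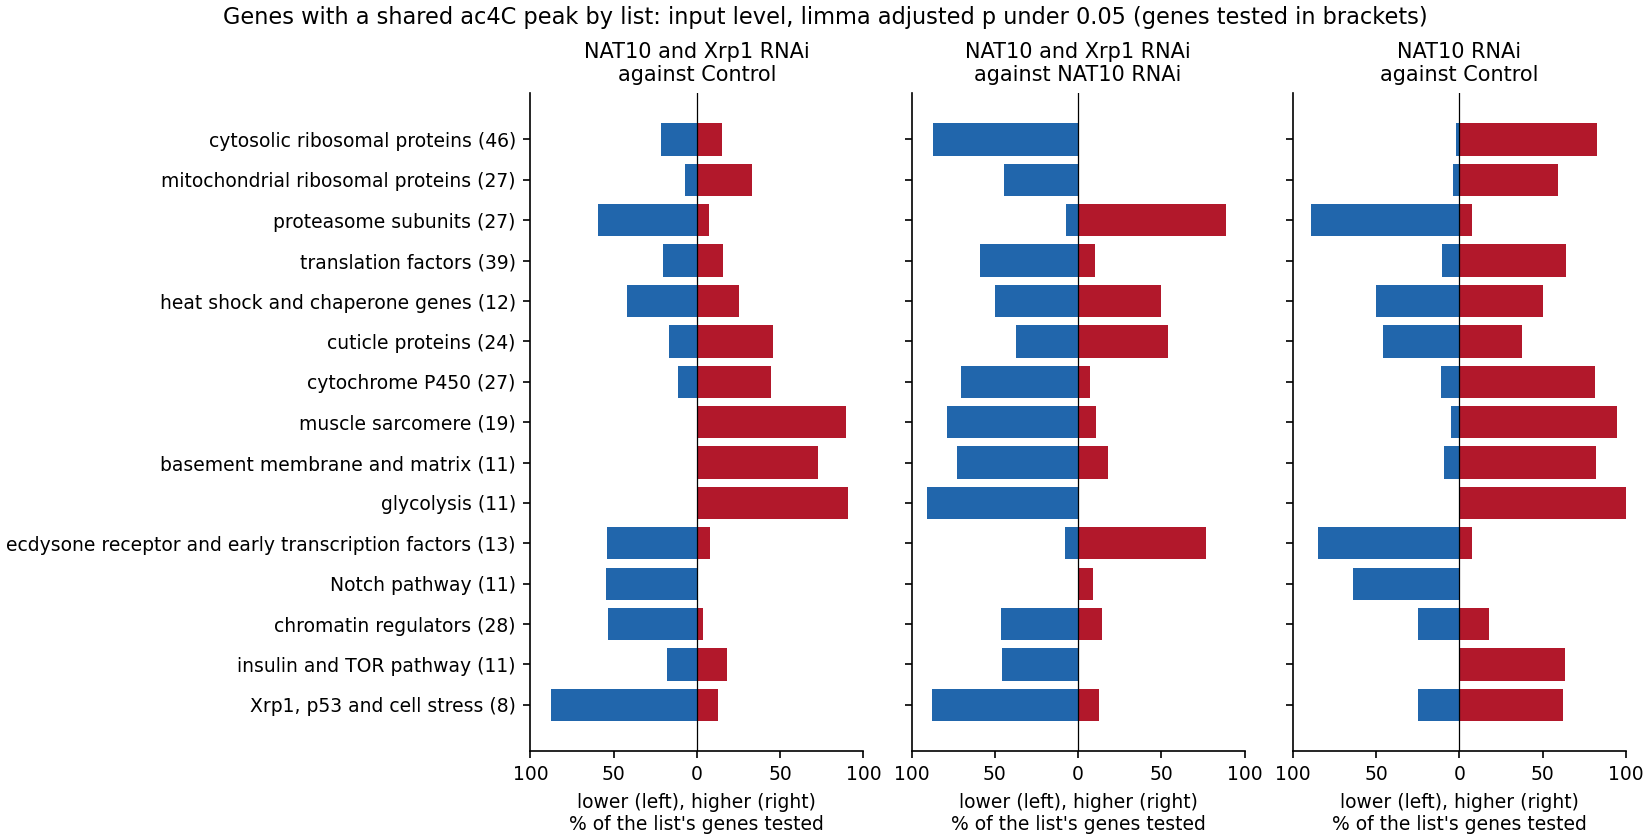
For 15 lists, the percentage of tested genes with a shared peak whose input level was called higher (red, right) or lower (blue, left) by limma at an adjusted p under 0.05, with the number of genes tested in brackets and the lists as matched by symbol. Proteasome and ecdysone genes point left against control and right between both RNAi genotypes. The bars of ribosomal protein, translation factor and chromatin genes in the middle and right panels change with the scaling of libraries. Bars of other lists change too, among them glycolysis and Notch genes in the middle panel and insulin and TOR genes in the right panel.

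The last comparison asked which shared peaks the authors entered as differential between genotypes. The rule chose members present in every list, so their share in these tables is a description and nothing is read from it. In the authors' deposited table for NAT10 and Xrp1 RNAi against control, 80 members are matched, 42 higher and 38 lower in IP over input, of which 17 have an FDR under 0.05. Listed as the same control peak were 56 members (0.453%), against 2.19% of all control peaks. In the authors' deposited table for NAT10 RNAi against control 78 are matched, 18 higher and 60 lower, of which 30 have an FDR under 0.05. There 52 are listed as the same control peak (0.421%), against 2.87% of all control peaks. Counts were small: the lower of the summed input counts had a median of 20 reads over the 80 and 23.5 over the 78, and was under 10 for 16 and 14 members.

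Some of the largest changes rest on almost no input reads. In the authors' deposited table for NAT10 RNAi, CG15533 (3R:30429860-30430274) has a log2 change of -9.47 and an FDR of 0.0987. Its IP counts are 66, 65 and 81 in NAT10 RNAi and 12, 4 and 12 in control, and its input counts 12, 33 and 23 against 0, 0 and 0. In the authors' deposited table for both constructs, CG13101 (2L:8977983-8978134) has a log2 change of 9.19 and an FDR of 0.388, with input counts of 0, 0 and 0 against 1, 4 and 3. Of the members, 2 in each table have a summed input count of 0 in 1 genotype.

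In the authors' deposited table for both constructs, mirr, which encodes an Iroquois homeodomain factor, has a 3′ UTR peak (3L:12709141-12709291) with a log2 change of 3.01 and an FDR of 0.000369. Its IP counts are 58, 56 and 50 with both constructs and 104, 83 and 96 in control, and its input counts 2, 1 and 1 against 21, 23 and 15. Both IP and input are lower there in counts not scaled to library depth, and input is lower by more. The following 4 entries are among 12 that stand in both tables, and were chosen after their values were seen. CG5084 and CG10543, higher in both, are not described further. Their FDR is under 0.05 in 1 table each, at 0.00607 with both constructs for CG5084 and 0.00505 with NAT10 RNAi for CG10543. For the coding peak of pen-2, which encodes a subunit of gamma-secretase (2R:18277497-18277995), the authors' deposited tables give 1.01 with both constructs and 1.03 with NAT10 RNAi against the same control libraries (FDR of 4.49e-11 and 1.20e-10). IP counts of pen-2 are 300, 377 and 288 with both constructs, 286, 339 and 276 with NAT10 RNAi and 618, 479 and 547 in control. Input counts are 66, 71 and 93, then 58, 114 and 77, then 253, 271 and 261 in that order. In these counts, which are not scaled to library depth, the IP ranges and the input ranges of the RNAi genotypes lie below those of control.

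The coding peak of tara, a chromatin-associated regulator (3R:16259249-16259520), has log2 changes of -1.12 with both constructs and -1.37 with NAT10 RNAi in the authors' deposited tables, with FDR values of 0.00111 and 2.63e-05. IP counts are 115, 115 and 117, then 108, 104 and 111, then 147, 127 and 104 in control, and the groups overlap. Input counts are 27, 64 and 67, then 52, 77 and 68, then 31, 24 and 22 in control. In these unscaled counts NAT10 RNAi lies above control and the range with both constructs overlaps it. The library with 27 held 15518179 reads in genes and the control library with 31 held 18218958, so the overlap may not hold after scaling. Men-b, a malic enzyme gene, has -1.02 with both constructs (FDR of 0.0300) and -1.34 with NAT10 RNAi (FDR of 0.0493) in the authors' deposited tables. For Tspo, which encodes a protein of the outer mitochondrial membrane, they give -1.23 (FDR of 0.0936) and -1.09 (FDR of 0.0207). Each of these changes is a ratio of IP to input, and both tables share the control libraries.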

How the data were processed

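ac4C immunoprecipitation and input libraries were made per the labels' protocols from RNA cut to about 100 nt, with 10% kept as input, and read with 12-base molecular identifiers. BDGP6 is the build in the submitters' processing notes, beside the tools bedtools 2.30.0, deepTools 3.5.1, HOMER 4.9.1, fastp 0.23.1, STAR 2.7.6a and featureCounts (Subread 1.5.1). How peaks were called, how they were compared and whether counting used strand is not given in the sources used here.

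Peak lists were deposited by genotype, and per the file headers hold a fold enrichment and an FDR for each peak. Per the file headers, the deposited differential tables hold a log2 change with its p-value and FDR, and the read count of each library. The deposited input table gives FPKM per gene and library, per the file headers. The 12 columns of per-library values in 2 further gene comparison tables were not used. Coordinates are printed as listed; 746 control peaks start 1 base before an annotated exon start and 60 at one, so a printed start may lie 1 base too early.

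The members and gene lists were chosen with earlier results of these data known. Peaks were given to the gene whose span covered most of their bases; among tied genes the one with most exon bases was taken, a choice made after seeing the data. Place in genes came from the Ensembl annotation of BDGP6, in which some genes of the table are missing. The level test was limma 3.58.1 (R 4.3.3) on log2(FPKM + 1), in 1 fit of all 3 genotypes, for genes that reached 1 FPKM in at least 3 input libraries. P-values were adjusted by Benjamini-Hochberg and called under 0.05. On this scale the change of low genes is understated. All FPKM values returned whole reads within 0.1 of a read, so edgeR 4.0.16 and DESeq2 1.42.0 were run on recovered reads as alternatives. Tests were also run on simulated data.

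Named peaks were the 10 with the highest lowest enrichment, the 3 on each side of the overlap threshold, those of the targets, and up to 5 of largest change per direction in each differential table. Named genes were the 5 with most shared peaks, the 5 of largest called fold per direction and comparison with groups apart and the higher group averaging 5 FPKM or more, and up to 4 per list by enrichment. Examples printed are a part of these.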

Additional observations from a re-analysis of the deposited data

How the results depend on the processing

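The count of shared peaks depended on the overlap and enrichment asked for. A reciprocal overlap of 75% left 6327 peaks on 4019 genes, an overlap of at least 1 base gave 18665 peaks, and lists cut to a fold of at least 4 before matching left 538 peaks on 470 genes (536 members reach that fold with the partners first chosen). By construction fewer genes were then counted: at 75% overlap 2792 were called between NAT10 RNAi and control and 2584 between both constructs and NAT10 RNAi. The other alternatives run for these counts stayed within 1.5 times. Leaving out 1 replicate at a time gave 2204 to 2731 calls for both constructs against control, 3908 to 4450 for NAT10 RNAi against control and 3466 to 3849 for both constructs against NAT10 RNAi. Replicate numbers did not pair the samples (correlations of same-numbered deviations between -0.07 and 0.08), and with the replicate block the calls were 2622, 4187 and 3837 in that order. Settings added after seeing the data gave 6062 genes with ties taken by table order and 6169 by annotated exons, and the list counts without genes of another kind given above. Among results for the named genes of large change, 1042 kept direction and side of the threshold, 15 lost the call, 14 gained one and 0 reversed. These genes were chosen for large called folds with groups apart. Their stability is therefore favoured by the choice and does not describe the other members. edgeR gave 2035 higher and 2277 lower for NAT10 RNAi against control, DESeq2 1786 and 2180. The motif search was not run, since no genome sequence was used here. Peak lists without replicates or input counts give no spread for enrichment.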
